A study of Mus musculus with 18 samples.

Results

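The comparison described here set tumor cells sorted as CD29 high and CD24 high (CD29H CD24H) against tumor cells sorted as CD29 low and CD24 high (CD29L CD24H), on 6 of the 18 arrays of the series. Its members were chosen by the array titles alone: 3 arrays in each group, from the same 3 mouse mammary tumors, numbered 1, 2 and 7, so that each tumor gave 1 pair. Tumors 1 and 2 were at transplant generation 1, and no generation was given for tumor 7. The 6 other tumor arrays held the CD29H CD24L and CD29L CD24L fractions of the same tumors. Of the 6 remaining arrays, 5 came from normal mammary epithelial cells and 1 held a reference RNA. All tumor and normal samples were total RNA from antibody-sorted cells, isolated on a column kit, amplified in 2 cycles from a T7 promoter and labelled with biotin. The labels gave no genotype, strain, age or treatment; the tumors of this study are known to derive from transplanted p53-null mammary epithelium. Nothing in the labels said whether each tumor number stands for 1 animal or for pooled animals.

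CD29 is the integrin beta1 chain, encoded by Itgb1, which pairs with one of many alpha chains to anchor cells to laminin, collagen and fibronectin. CD24, encoded by Cd24a, is a small glycosylated protein of the cell surface. Together they divide the normal mouse mammary gland into basal cells, which hold the cells able to regrow a gland, and luminal cells. The study collected the tumor fractions to relate their expression to their ability to start tumors on transplantation, and the comparison asks what the CD29 gate separates once CD24 is high on both sides.

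The values were deposited Affymetrix signals, each array having a trimmed mean of 500, and were analysed as log2(signal + 32). A difference below is the log2 value on the CD29H array minus that on the CD29L array of the same tumor, averaged over 3 tumors with its standard error (SE) from a fit to all 12 tumor arrays with tumor as a block. The fit covered 10916 genes, each represented by 1 probe set, the group of oligonucleotides that reads a transcript. Median signals of the 18 arrays lay between 71.6 and 104.2. The ratio of 3′ to 5′ actin signal, a measure of RNA length after amplification, was 23.2 on the CD29H CD24H array of tumor 2 and 49.6 to 72.5 on the other 5 CD24-high tumor arrays. It was 14.4 on the CD29L CD24L array of tumor 2. The same ratio for Gapdh, a glycolytic enzyme, was lower on the CD29H side of all 3 CD24-high pairs, at 31.3 against 39.9 in tumor 1, 12.7 against 24.2 in tumor 2 and 22.3 against 47.9 in tumor 7. It thus moved with the CD29 gate, and its part in the results below was not tested. A shift of all arrays to one median moved every difference by 0.144, from a median of -0.03 to one of 0.12.

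Epcam, an epithelial adhesion protein, was abundant on all 6 arrays, with signals between 14387 and 25940. It was picked outside the naming rule given below, and other epithelial genes, such as Gata3, were weak. Cd24a had 44031, 33643 and 37305 on the CD29H arrays of tumors 1, 2 and 7, and 37525, 49678 and 48270 on the CD29L arrays, so the groups overlapped. Its difference was -0.23 ± 0.27 (SE; limma, adjusted p = 0.847). On the tumor arrays labelled CD24 low, Cd24a still had 18257 to 43384, against 845 in the normal cells labelled CD24L. Only in tumor 2 did both arrays labelled CD24 low (27126 and 18257) lie below both labelled CD24 high.

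The transcript of the gated protein did not follow the CD29 label either. Itgb1 had 1893, 534 and 4529 on the CD29H arrays of tumors 1, 2 and 7 and 1049, 1490 and 8532 on the CD29L arrays. It was higher on the CD29H side in tumor 1 alone, by 0.83, and lower in tumors 2 and 7, by differences of -1.43 and -0.91. The mean difference was -0.50 ± 0.51 (adjusted p = 0.828), and the exact two-sided sign-flip test over the 3 pairs gave p = 0.5, where the smallest it can give is 0.25. Without the CD29H CD24H array of tumor 2 the Itgb1 difference was 0.046. Another abundant Itgb1 probe set showed the same directions. It had 1724 against 931 in tumor 1, 489 against 1206 in tumor 2 and 6111 against 8213 in tumor 7. A weaker one, still above the filter level, had differences of -0.27, 0.41 and -0.16, opposite in tumors 1 and 2. The remaining Itgb1 probe sets lay below the filter level, with mean differences of 0.61, 0.36 and -0.22. The one at 0.61 was higher on the CD29H side in all 3 tumors, at very low signals. In the CD24-low fractions Itgb1 was higher on the CD29H array in all 3 tumors (3152 against 1118, 5660 against 458 and 5620 against 2064). In normal cells it was higher in both preparations (1264 against 778 and 2183 against 635). The difference between the CD24-high and CD24-low comparisons was -2.65 ± 0.72 and did not pass (adjusted p = 0.0847). The gate acts on surface protein, which was not measured on the arrays, so the groups are named below by their labels.

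**Figure D1:**
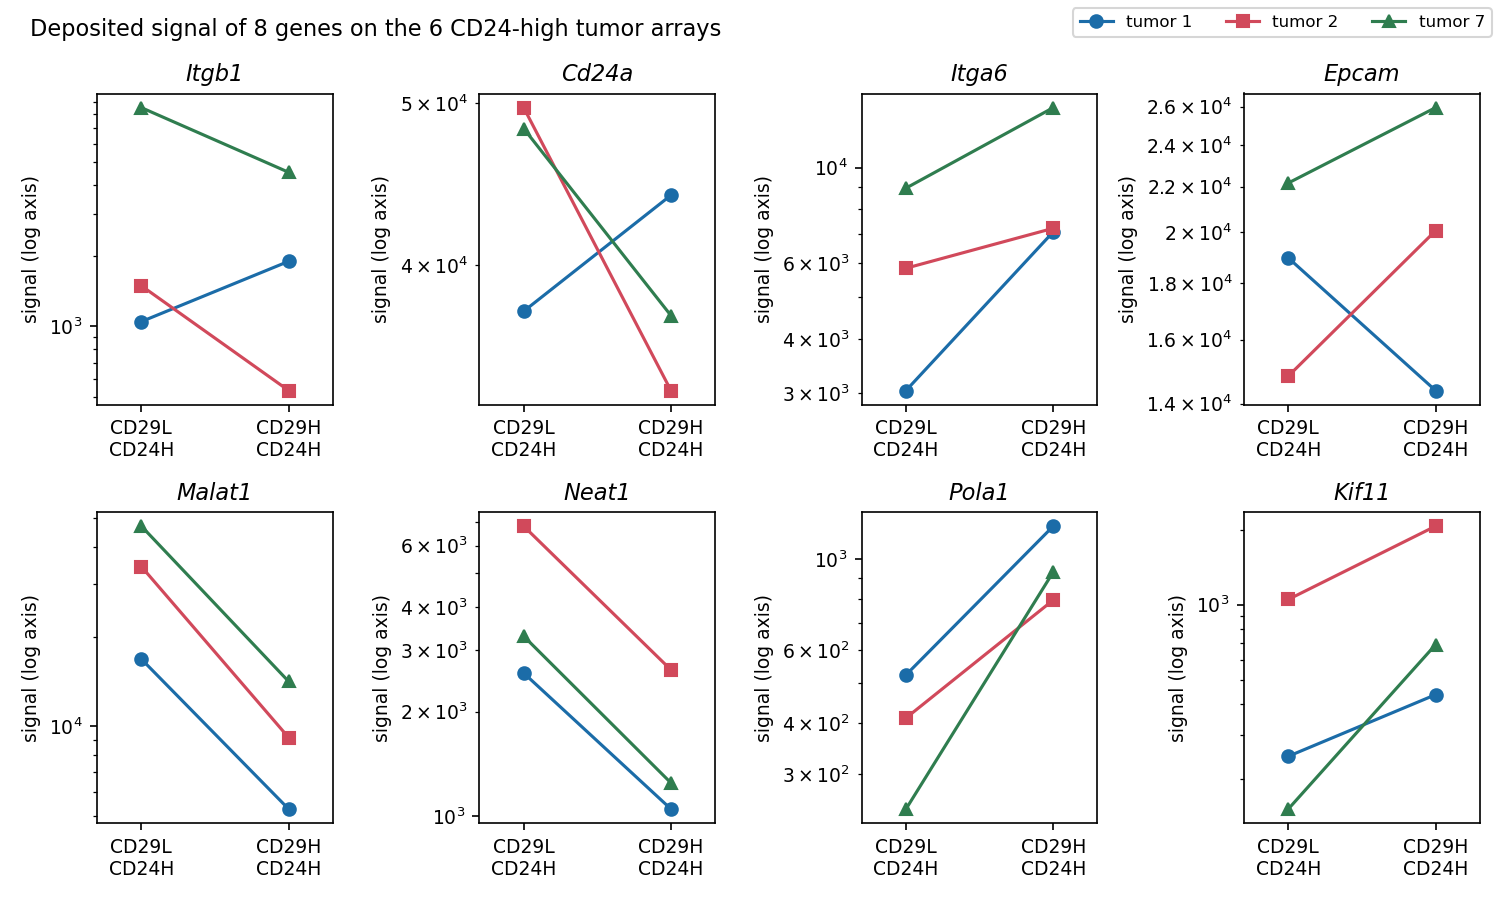
Deposited signal (vertical axis, logarithmic) of 8 genes on the CD29L CD24H and CD29H CD24H arrays, with a line for each of the 3 tumors. Itgb1, Cd24a and Epcam change direction between tumors, whereas Malat1 and Neat1 go down and Itga6, Pola1 and Kif11 go up in all 3.

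A single gene passed an adjusted p of 0.05 among the 10916 tested (0.00916%). Malat1, an abundant nuclear long noncoding RNA that gathers at splicing speckles, fell by 1.77 ± 0.24 on the log2 scale in CD29H CD24H cells (adjusted p = 0.0325). Its signals were 5259, 9145 and 14120 on the CD29H arrays and 16790, 34371 and 47002 on the CD29L arrays of tumors 1, 2 and 7. The highest CD29H array stayed below the lowest CD29L array, and the differences of the 3 tumors, -1.67, -1.91 and -1.73, lay close together. All 7 of its probe sets were lower in all 3 tumors, by means of -0.88 to -1.87. Malat1 was also lower in the 3 CD24-low pairs, by a mean of -0.53, and the difference between those comparisons was -1.24 ± 0.35 (adjusted p = 0.092). The call did not survive quantile normalization, the median shift or leaving out any single CD24-high array, and no gene passed without the tumor block, where 287 genes (2.63%) had an unadjusted p under 0.05.

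Neat1, the noncoding RNA that builds paraspeckles, had the same pattern at a smaller size. Its signals were 1049, 2635 and 1247 on the CD29H arrays against 2580, 6821 and 3293 on the CD29L arrays, a difference of -1.34 ± 0.40 (adjusted p = 0.499). The groups overlapped because tumor 2 was higher than the others on both sides, while each pair alone was lower by a similar amount, from -1.27 to -1.38. Neat1 was lower on the CD29H side in the CD24-low fractions too (mean -1.44) and in the normal cells (-2.39). Of 13 long noncoding RNAs tested, 10 were lower and 3 higher on average, and 5 were lower in all 3 tumors, with a median of -0.48. That median was -0.21 without tumor 2 and -0.25 without the 2 arrays of lowest actin ratio. Among all genes 17% were lower in all 3 tumors and 14.7% higher in all 3.

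Below that threshold, 318 genes (2.91%) were higher and 571 (5.23%) lower in CD29H CD24H cells at an unadjusted p under 0.05, together 889 (8.14%), and 47.3% of all genes had a mean difference above 0. With the median shift these counts became 694 and 306, so the balance of higher and lower genes depended on the scaling. The 10 genes that were most evenly higher, ranked by the smallest of their 3 within-tumor differences, had mean differences of 0.87 to 1.91 and adjusted p between 0.372 and 0.508, so that none passed. Since they were chosen by these differences, their direction is a description.

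Among these 10, Pola1, the catalytic subunit of DNA polymerase alpha, had 1202, 795 and 930 on the CD29H arrays against 523, 411 and 247 on the CD29L arrays, a difference of 1.28 ± 0.30. Esco2, which acetylates cohesin so that sister chromatids stay joined, had 473, 475 and 384 against 177, 212 and 117. Neither gene's groups overlapped. Dut, the enzyme that removes dUTP before it enters DNA, had 2323, 2300 and 946 against 1295, 1041 and 459. Tumor 7 was low on both sides, so the groups overlapped. The other Dut probe set, too weak to be tested, was lower in all 3 tumors (mean -0.72). Hmgb2, a chromatin protein abundant in dividing cells, had 7840, 13276 and 14511 against 4461, 7497 and 6327, and its 3 abundant probe sets did not all move together: 2 were higher in all 3 tumors. Etaa1, an activator of the ATR checkpoint kinase, was higher by 1.43 ± 0.43 and Map9, a protein of the mitotic spindle, by 1.07 ± 0.31. Etaa1 was weak, with 269, 178 and 187 against 130, 74.5 and 9.01, and its largest step was in tumor 7. Its other probe set, too weak to be tested, was lower in tumors 2 and 7 (mean -0.58). Tceanc, related to transcription elongation factors, had 469, 440 and 418 against 188, 124 and 197, and Dixdc1, a DIX-domain protein of Wnt signalling, was higher by nearly the same amount in each tumor (0.88, 0.86 and 0.87). Zc3hav1l and the predicted gene Gm12338 completed the set, with differences of 0.95 ± 0.30 and 1.91 ± 0.50. In 6 of the 10 the groups did not overlap, which was so for 277 genes (2.54%) in the higher direction. The ranking itself favours genes without overlap, so these shares are not a test.

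Genes of mitosis stood higher in CD29H CD24H cells as a group. Of 36 listed genes, 35 were tested; 34 of them were higher on average and 24 in all 3 tumors, against 14.7% of all genes, with none lower in all 3. The median difference was 0.58, against -0.03 over all genes, and it was above 0 in each tumor (0.50, 0.79 and 0.36). None passed an adjusted p of 0.05, and 13 of 35 were higher at an unadjusted p under 0.05, against 2.91% of all genes. Kif11, the motor that pushes spindle poles apart, had 435, 2069 and 691 on the CD29H arrays against 246, 1050 and 151. Every pair was higher, but tumor 2 had several times the level of tumors 1 and 7, and the groups overlapped. Its difference was 1.23 ± 0.32 (adjusted p = 0.463).

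The other mitotic genes differed in how evenly they moved. Anln, a scaffold of the contractile ring, had 7644, 4796 and 3158 against 5414, 1988 and 1150, a difference of 1.06 ± 0.31. Bub1, a kinase of the spindle checkpoint, had 1896, 2060 and 1425 against 819, 1629 and 548, with the smallest step in tumor 2. Plk1, which drives mitotic entry, was higher by 1.47 in tumor 2 and by 0.21 and 0.07 in tumors 1 and 7. Aurka, the centrosomal kinase, was higher by 0.28 ± 0.30, less than its own error. Foxm1, a transcription factor of mitotic genes, was the only one of the 35 with a mean below 0, at -0.20 ± 0.44. The names Foxm1 here and Fen1 below were picked after their values were seen.

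DNA replication genes went the same way. Of 46 listed, 43 were tested; 35 were higher on average, 22 of them in all 3 tumors, and 1 was lower in all 3. The median was 0.48, with tumor medians of 0.35, 0.58 and 0.44. After Pola1 came Pcna, the sliding clamp of the polymerases, with 6550, 12061 and 4260 against 4637, 3109 and 2590. Rrm1, the large subunit of ribonucleotide reductase, had 2055, 3479 and 2547 against 1613, 1387 and 1016 (difference 0.98 ± 0.30), and its groups did not overlap. The small subunit Rrm2 was higher by 0.84 ± 0.33. Mcm2, part of the replicative helicase, had 5117, 5073 and 4821 against 3001, 2582 and 3193, again without overlap. Mcm5, of the same helicase ring, showed no such step: 11682, 8905 and 5653 against 8512, 8952 and 6539. Fen1, the flap endonuclease, was the lowest of the list at -1.90 ± 0.78, with 10002, 14713 and 5339 against 8971, 97424 and 47474. It was higher in tumor 1 and lower in tumors 2 and 7. This probe set also split the normal CD29P CD24H arrays, at 3356 in preparation 1 and 49999 in preparation 2, as that of Pik3cd below did. The reason was not tested.

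**Figure D2:**
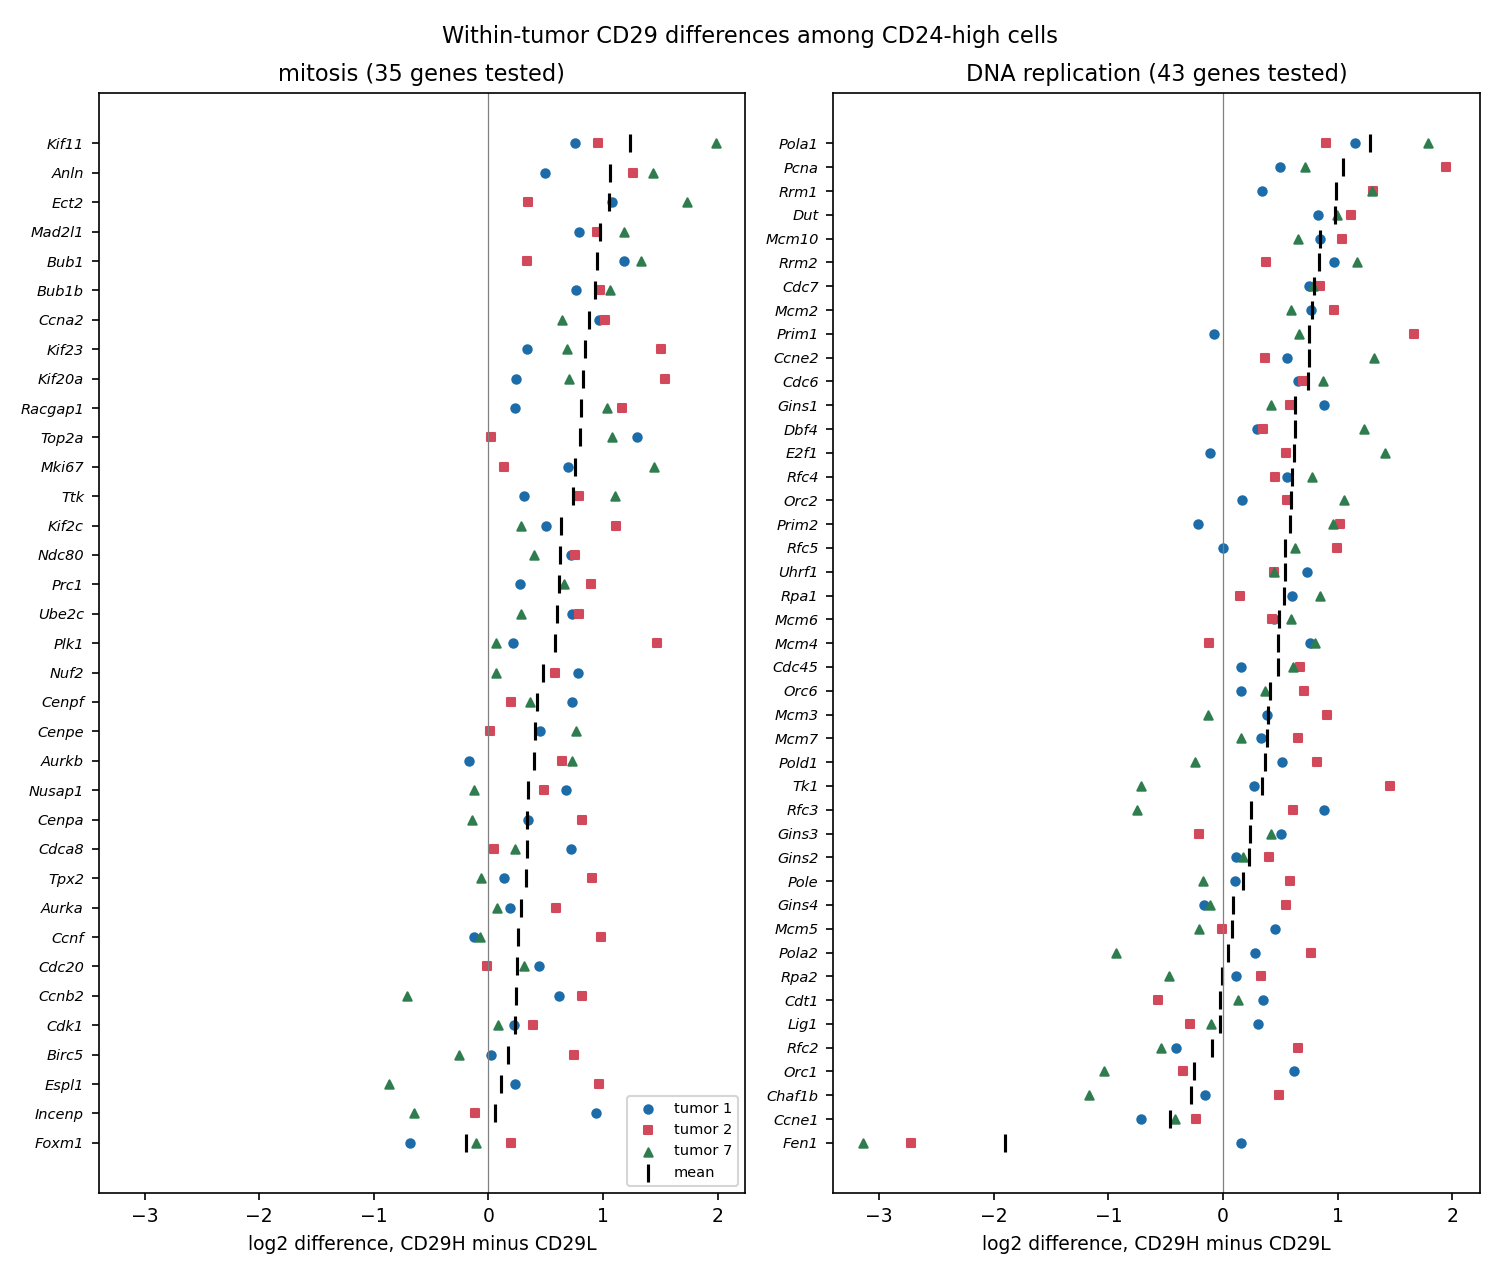
Log2 difference between CD29H and CD29L arrays (horizontal axis) for each tested gene of the mitosis and DNA replication lists (rows, sorted by mean), with a symbol for each tumor and a bar for the mean. Most symbols lie right of 0 in both panels, and Fen1 stands apart at the bottom with tumors 2 and 7 far to the left.

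DNA repair genes were on the higher side too. Of 40 listed, 32 were tested, 26 were higher on average and 15 in all 3 tumors, with a median of 0.28. Brca1, which acts in repair by recombination, was higher by 1.04, 0.42 and 1.39 in tumors 1, 2 and 7, a mean of 0.95 ± 0.31. Rad51ap1, a partner of the recombinase, was higher by 0.76 ± 0.27 and Chek1, the checkpoint kinase, by 0.65 ± 0.29. Fanca was at 0.11 ± 0.30.

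The medians of the 3 lists kept their sign under quantile normalization and the median shift, and without any one tumor. Without tumor 2 they were 0.47 for mitosis, 0.38 for replication and 0.22 for repair. Without the 2 arrays of lowest actin ratio they were 0.43, 0.42 and 0.26. Their size depended on the probe sets: with the mean of all probe sets of a gene, the medians were 0.32, 0.25 and 0.20, and 33 mitosis and 38 replication genes were higher.

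Promoter sequences from RefSeq (build GRCm38.p6, 250 bases before to 50 after the start) show what these lists share beyond the array values, and 3 members with a match are printed. The cell cycle homology region, or CHR, is an element of genes expressed late in the cell cycle, and was searched as TTTGAA or TTCGAA on both strands. It was in the promoter of 24 of 29 matched mitosis genes (82.8%), 8 of 35 replication genes (22.9%), 1 of 25 repair genes (4.0%) and 21.7% of all 27025 genes with a sequence. E2F factors act on genes of the entry into DNA synthesis, and their site was searched as TTTCCCGC, TTTGGCGC, TTTCGCGC or TTTGCCGC on both strands. It was in 13 of 35 replication genes (37.1%), 5 of 25 repair genes (20.0%), 1 of 29 mitosis genes (3.45%) and 2.60% of all genes. Kif11 and Bub1 are shown with the CHR letters in capitals, and Pola1 with the E2F letters. The Kif11 promoter lies at chr19:37376132-37376431 on the plus strand, that of Bub1 at chr2:127831810-127832109 on the minus strand, and that of Pola1 at chrX:93632106-93632405 on the minus strand. A match of letters shows neither binding nor use of the site.
Kif11: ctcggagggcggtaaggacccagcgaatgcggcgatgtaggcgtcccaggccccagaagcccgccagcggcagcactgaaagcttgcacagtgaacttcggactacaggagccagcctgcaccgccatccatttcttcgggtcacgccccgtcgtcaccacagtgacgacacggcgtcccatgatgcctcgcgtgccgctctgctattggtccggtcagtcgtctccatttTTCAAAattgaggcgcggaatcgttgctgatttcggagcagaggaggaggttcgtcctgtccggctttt
Bub1: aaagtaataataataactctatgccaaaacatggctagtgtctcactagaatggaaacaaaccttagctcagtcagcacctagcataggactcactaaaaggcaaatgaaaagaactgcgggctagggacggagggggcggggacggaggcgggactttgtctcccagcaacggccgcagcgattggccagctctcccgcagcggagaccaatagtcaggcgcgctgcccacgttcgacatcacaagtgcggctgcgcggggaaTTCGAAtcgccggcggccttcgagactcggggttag
Pola1: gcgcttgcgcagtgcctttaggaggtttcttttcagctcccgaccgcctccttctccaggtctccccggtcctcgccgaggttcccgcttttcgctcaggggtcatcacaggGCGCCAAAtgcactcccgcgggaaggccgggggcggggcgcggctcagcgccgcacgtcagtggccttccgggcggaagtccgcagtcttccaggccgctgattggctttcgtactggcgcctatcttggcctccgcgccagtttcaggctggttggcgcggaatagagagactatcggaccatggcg

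Luminal genes lay lower in CD29H CD24H cells. Of 35 listed, 29 were tested; 23 were lower on average, 11 in all 3 tumors, and 4 were higher in all 3. The median was -0.38, with -0.72 in tumor 1, -0.24 in tumor 2 and -0.14 in tumor 7, and it stayed below 0 under both other scalings. Without tumor 1 it was -0.23 and without tumor 7 it was -0.59. Cldn4, a tight-junction claudin, had 673, 1841 and 1701 on the CD29H arrays against 3026, 3387 and 6098, without overlap (difference -1.60 ± 0.36, adjusted p = 0.372). Cldn7, another claudin, had 4758, 1628 and 9748 against 14355, 2207 and 30382. The luminal keratins were uneven: Krt18 had 2678, 6191 and 15365 against 7469, 8043 and 16360, so that only tumor 1 differed by more than 0.4, and Krt8 gave the same picture at -1.50, -0.42 and -0.16. Krt19 was below the filter level in tumors 1 and 2 (11.4 to 56.4) and was at 0.13 ± 0.43. Gata3, the luminal transcription factor, was low throughout, between 31.6 and 242.

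Luminal progenitor genes also lay lower, with 9 of 11 tested genes below 0 and a median of -0.29, which was -0.15 with the median shift. Kit, the stem cell factor receptor, had 2794, 1325 and 680 against 4028, 2452 and 1542, lower in each tumor (-0.85 ± 0.27). Ltf, lactoferrin, was lower by -2.25 in tumor 1, -0.24 in tumor 2 and -0.76 in tumor 7. Aldh1a3, a retinaldehyde dehydrogenase, went down in tumor 1 and up in tumors 2 and 7, at a mean of 0.00. Elf5, which directs alveolar fate, was at -0.29 ± 0.33. Milk genes were few: 10 of 14 were tested, with 6 below 0 and a median of -0.12 that became 0.03 with the median shift.

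Basal genes showed no common direction. Of 25 listed, 20 were tested, 10 were higher and 10 lower, and the median was 0.00. Trp63, the basal transcription factor, had 7526, 3517 and 451 against 2746, 3014 and 189 (0.93 ± 0.34), while Krt14 had 3640, 4513 and 293 against 4630, 4938 and 390, slightly lower in each tumor. Krt5 was at 0.41 ± 0.37. Acta2, smooth muscle actin, differed by tumor, with 13004, 2929 and 831 against 11244, 9129 and 800. Tumor 7 had little of Krt5, Krt14, Trp63 and Acta2 on both sides of the gate, so the tumors differed from each other by more than the gated fractions did. Vcan, a matrix proteoglycan counted in this list, had 3611, 2566 and 2149 against 1254, 1381 and 1554 without overlap.

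The alpha chains that pair with beta1 split evenly. Of 8 tested, 4 were higher and 4 lower, with a median of -0.06 that became 0.08 with the median shift. Itga6, the laminin-binding chain that also pairs with beta4, had 7095, 7232 and 13766 against 3043, 5844 and 8960, higher in each tumor (0.71 ± 0.26, adjusted p = 0.547). Itga5, the fibronectin-binding chain, had 63.3, 36.4 and 112 against 83.3, 234 and 184, lower in each tumor. Itga3 was higher in tumor 1 (1029 against 671) and lower in tumor 7 (307 against 837), and Itga1 was at 0.21 ± 0.31. Itgav had 12430, 10911 and 18524 against 8089, 18642 and 26759, the same order as Itgb1: higher in tumor 1, lower in tumors 2 and 7. Itga2 was below the filter.

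Genes of the adhesion complex and the basement membrane did not move together either. In the adhesion list 9 of 16 tested genes were higher, with a median of 0.10. Tns3, a tensin that links integrins to actin, had 9315, 11492 and 5332 against 3583, 9092 and 2229 (0.98 ± 0.35), whereas Zyx, zyxin, was at -0.83 ± 0.39, mostly in tumor 7 (499 against 2216). Ilk, the integrin-linked kinase, was lower in each tumor by -0.29, -0.29 and -1.23; Tln1 and Vcl, talin and vinculin, changed sign between tumors. Of 16 laminin and basement membrane genes 9 were higher, with a median of 0.09. Lama5 had 424, 502 and 358 against 761, 1448 and 776, without overlap (-1.11 ± 0.43). Col17a1, a hemidesmosomal collagen, was at 0.87 ± 0.36, with little signal in tumor 7 (55.8 and 45.0). Lama3 was at 0.71 ± 0.35, mostly in tumor 1, and Lamb3 at -0.01 ± 0.43.

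**Figure D3:**
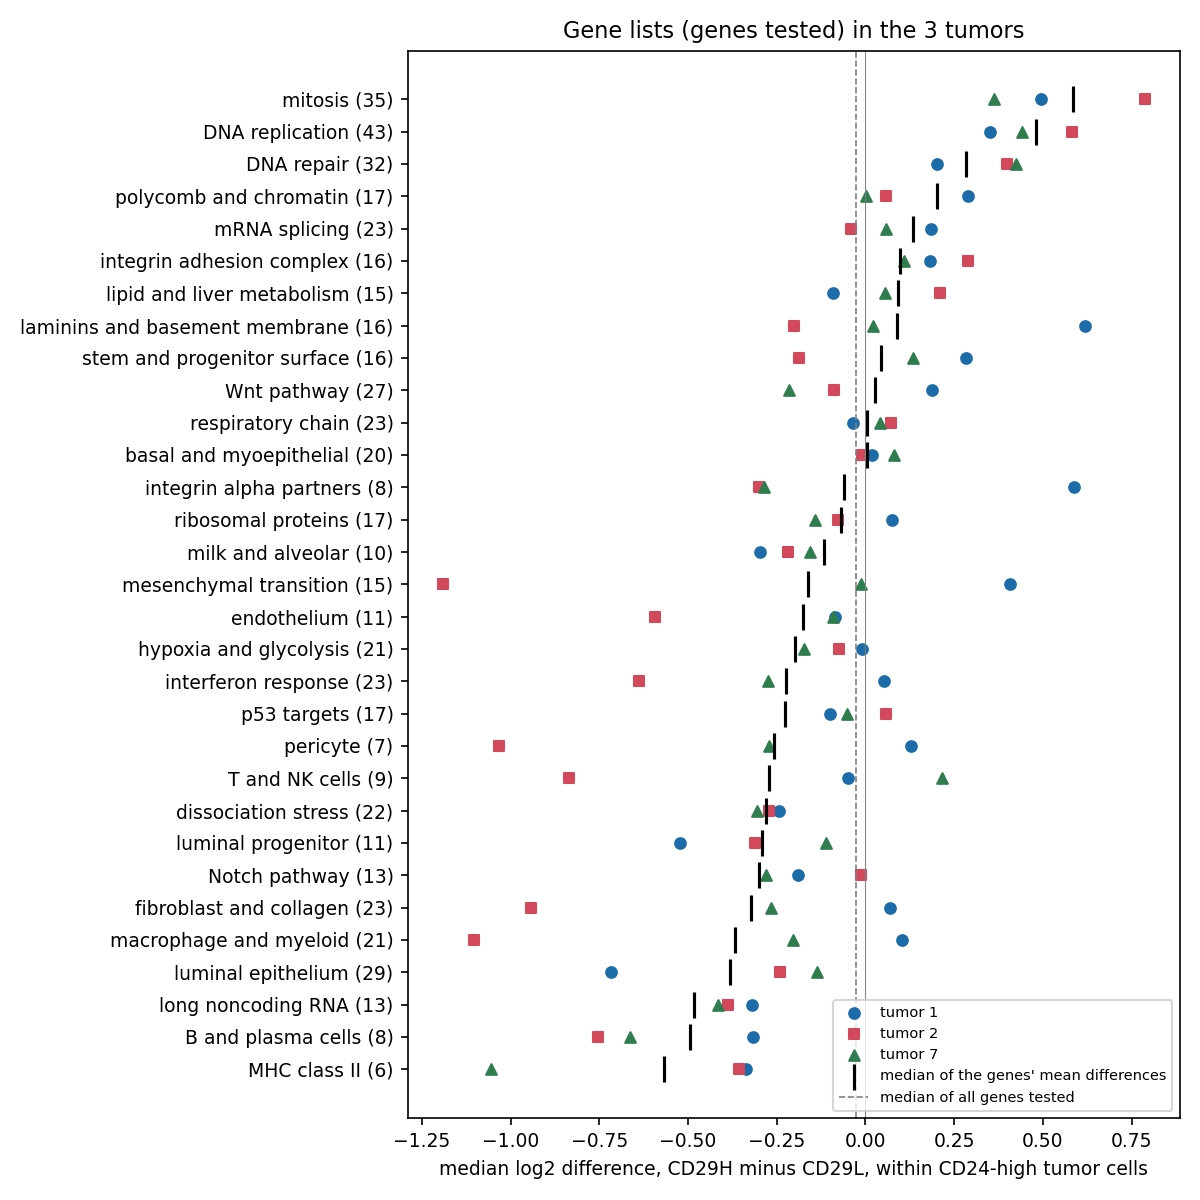
Median log2 difference between CD29H and CD29L arrays (horizontal axis) over the tested genes of each list (rows, number tested in brackets), with a symbol for each tumor and a bar for the median of the mean differences. Mitosis, replication and repair lie right of 0 in each tumor, luminal genes left of 0 in each, and in the myeloid, fibroblast and mesenchymal lists tumor 2 lies far left of tumor 1.

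The 10 genes most evenly lower in CD29H CD24H cells had mean differences from -1.77 to -3.48, but apart from Malat1 none passed, the largest adjusted p being 0.499. In 6 of the 10 the groups did not overlap, which was so for 458 genes (4.2%) in the lower direction. These genes too were ranked by their differences on the same arrays, so their direction and lack of overlap are a description. Armc8, a subunit of a ubiquitin ligase complex, had 203, 1297 and 295 against 1167, 18398 and 4863. Pik3cd, a phosphoinositide 3-kinase subunit of leukocytes, had 1324, 6797 and 1108 against 6601, 79225 and 20089. Rab6b, a Golgi GTPase, had 204, 542 and 283 against 767, 12201 and 6075. In each pair the CD29L array was several times higher. The SE of these differences was 0.97, 0.81 and 0.92, since the 12 tumor arrays varied widely.

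These values rested on single probe sets. Pik3cd had 6 probe sets and Rab6b 4, of which 1 each lay above the filter level. The others had signals of at most 110 for Pik3cd and 84.7 for Rab6b on the 6 arrays. Their mean differences were -0.57 to 0.22 and -0.55 to 0.22. With the weak ones counted, 3 probe sets of Pik3cd and 1 of Rab6b were lower in all 3 tumors. Armc8 had 5 probe sets above the filter level, of which 1 was lower in all 3 tumors and 2 were higher in all 3. Srr, serine racemase, had 3, of which 1 was lower and 1 higher in all 3. Aar2, an assembly factor of the spliceosome, had a difference of -2.16 ± 0.41 by one probe set and of -0.17 and -0.21 by its other abundant ones. Of the 7 genes in this group with over 1 probe set above the filter level, 3 had them all lower in all 3 tumors: Malat1, Igha and Aif1l, an actin-binding protein. Over the 12 tumor arrays, which share tumors and scaling, the log2 values of Armc8, Rab6b, Sema3f, Aar2, Aif1l and Srr followed those of Pik3cd with Pearson r of 0.99, 0.92, 0.91, 0.91, 0.90 and 0.83. Malat1, Jchain and Igha followed it less, at 0.56, 0.55 and 0.54. The genes nearest to Pik3cd by this measure were Armc8, 4930563E22Rik, Commd5, Hdac11, Kcnh3 and Rgs10, at 0.95 or above. On the normal CD29P CD24H arrays, Pik3cd had 779 in preparation 1 and 27047 in preparation 2. Fen1, of the replication list, had 3356 and 49999 there.

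**Figure D4:**
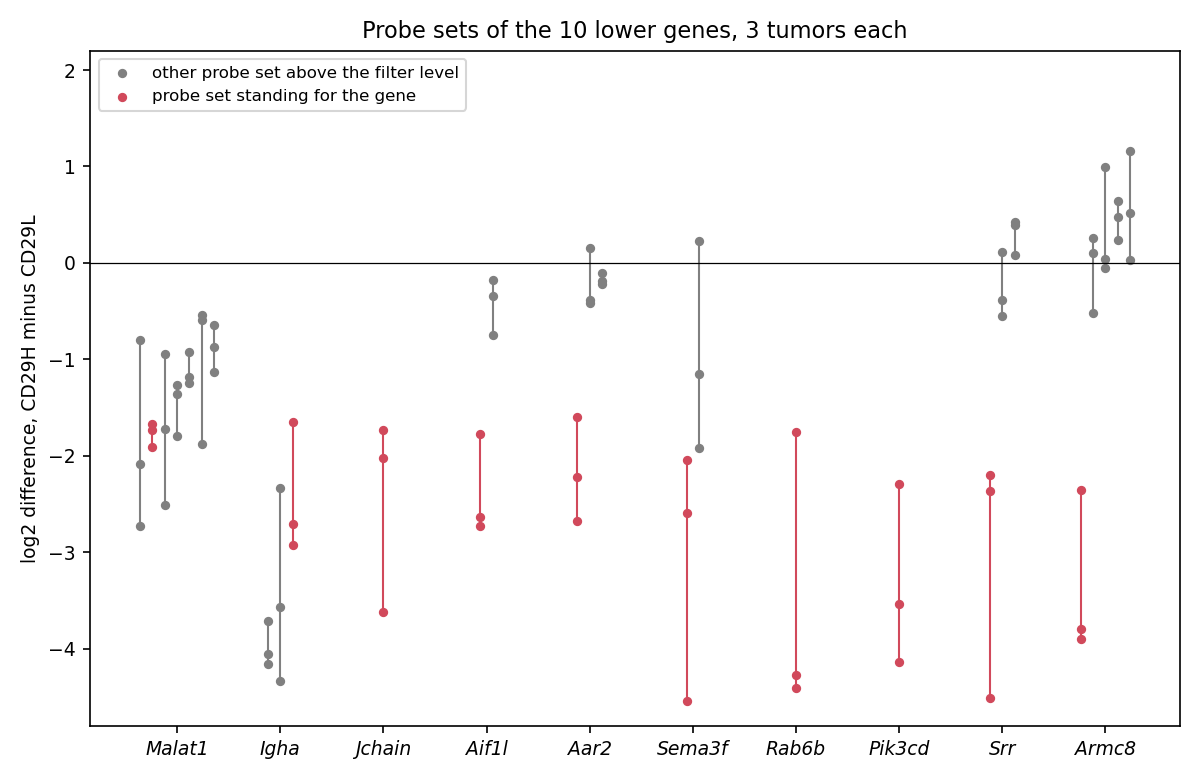
Log2 difference between CD29H and CD29L arrays (vertical axis) for each probe set above the filter level of the 10 lower genes; points are the 3 tumors, joined by a line, and red marks the probe set standing for the gene. All probe sets of Malat1, Igha and Aif1l lie below 0, and those of Armc8 and Srr lie on both sides.

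Fitted to the 6 CD24-high arrays alone, 36 genes passed (0.33%), 35 lower and 1 higher, Gm12338. All 10 lower genes were among them, with Neat1, Cldn4, Creb3l3, a liver transcription factor, and Fgfr4, a growth factor receptor. Those 10 had been ranked by their differences on these same 6 arrays, so their passing is no further support. Igha was represented in that fit by another probe set, at -3.41. That fit has 2 residual degrees of freedom and takes most of its error from the other genes, and with the median shift 19 genes passed (0.174%).

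Among the lower genes, 2 belong to antibody-secreting cells. Igha, the heavy chain of immunoglobulin A, had 92.0, 86.9 and 91.9 on the CD29H arrays against 777, 874 and 358, without overlap (-2.43 ± 0.44). Jchain, which joins immunoglobulin units, had 67.9, 70.8 and 63 against 375, 1230 and 285, also without overlap (-2.46 ± 0.51). All CD29H CD24H signals of both genes lay below the filter level, so the sizes are imprecise. The other Igha probe sets gave -3.41 and -3.98. Both genes were lower on the CD29H side of all 3 CD24-low pairs as well. Of 8 B and plasma cell genes tested of 18 listed, 6 were lower, all in all 3 tumors, with a median of -0.50, or -0.75 without tumor 1. The summed signal of all 13 list genes on the array, those below the filter included, was 15737 to 34427 on CD29H arrays and 23797 to 36441 on CD29L arrays. Cd79a and Cd79b, which define B cells, were below the filter. In sorted bulk samples fewer cells of a type and less RNA per cell cannot be told apart.

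Genes of other stromal cells were lower on the CD29H side mostly in tumor 2. All 21 macrophage and myeloid genes tested had a mean below 0 (median -0.37), but tumor 1 had a median of 0.10 with 13 of 21 higher, tumor 2 -1.10 with 0 of 21 higher, and tumor 7 -0.20. Without tumor 2 the median was 0.00. Csf1r, the receptor that macrophages depend on, had 4617, 10047 and 1954 against 3021, 23092 and 2801. The summed signal of all 23 list genes on the array ran from 43605 to 58906 on CD29H arrays and from 41244 to 144017 on CD29L arrays; Itgam was below the filter. Of 23 fibroblast genes 18 were lower (median -0.32; 0.07, -0.94 and -0.27 by tumor), with signals summed over these 23 of 30002 to 72872 against 23720 to 150133. Col1a1, the main fibrillar collagen, had 2660, 2402 and 857 against 2101, 13625 and 1643. Without tumor 2 the fibroblast median was 0.00 as well. The low actin ratio of 23.2 on the CD29H CD24H array of tumor 2 moved with these lists. Without the 2 arrays of lowest actin ratio, this one among them, the myeloid median was -0.19 and the fibroblast median -0.22. That of the mesenchymal transition genes was -0.0084. The part of the ratio itself, apart from tumor 2, was not tested. The 15 mesenchymal transition genes tested followed the same tumors (0.41, -1.19 and -0.01; median -0.16, and 0.10 without tumor 2), with Vim, vimentin, at 7073, 4763 and 3903 against 6952, 12015 and 3270.

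Antigen presentation genes of MHC class II had a median below 0 in each tumor, at -0.34, -0.36 and -1.06 in tumors 1, 2 and 7. All 6 tested had a mean below 0, and 3 were lower in all 3 tumors. The median of -0.57 became -0.35 without tumor 7. Summed over all 8 list genes on the array, the signal was 2029 to 5940 against 4237 to 7980. Cd74, the invariant chain, had 252, 191 and 84.7 against 362, 522 and 399 (-1.22 ± 0.40), and H2-Aa was at -0.78 ± 0.27. H2-Ab1 was higher in tumor 2 (679 against 489).

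Stress genes induced by tissue dissociation lay slightly lower, with 20 of 22 tested below 0, 9 lower in all 3 tumors and a median of -0.28, which was -0.14 with the median shift. Junb and Jund, of the AP-1 family, were at -0.73 ± 0.28 and -0.80 ± 0.27. Fos, Jun and Egr1 were not among the 9 lower in all 3 tumors: each was higher in tumor 1 and lower in tumors 2 and 7.

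The same gate was also applied to CD24-low cells of the same tumors, and the difference between both CD29 comparisons was tested. It passed for 211 genes (1.93%), of which 191 (1.75%) were lower in the CD24-high comparison and 20 (0.183%) higher. The lowest p-values belonged to Bicc1, an RNA-binding protein, Aebp1, a collagen-binding protein, Mrc2, a collagen uptake receptor, Ptx3, a pentraxin, and Gfpt2, an enzyme of hexosamine synthesis. Mrc2 had 2836, 4419 and 1938 on the CD29H CD24L arrays against 201, 183 and 288 on the CD29L CD24L arrays, a step of more than 2 log2 units in each tumor. On the CD24-high arrays it had 316, 167 and 192 against 262, 414 and 325, with overlapping groups and a difference of -0.53 ± 0.35. The count was 0 without the tumor block and 0 without tumor 2. Leaving out 1 array of tumor 2 gave 31 to 83 genes, 1 of tumor 1 (CD29L CD24H or CD29H CD24L) 117 or 99, and the CD29H CD24H array of tumor 7 63.

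By list, the CD24-low comparison differed most in fibroblast genes. Their median there was 2.60, with all 23 above 0, and for 13 of the 23 the difference between comparisons passed, all lower in the CD24-high one. Mesenchymal transition genes had 1.85 there, and 5 of 15 passed. Mitosis and replication genes had medians of -0.06 and -0.21 in CD24-low cells, against 0.58 and 0.48 in CD24-high cells. The tests gave 0 of 35 and 0 of 43 genes past the threshold, so a difference between the fractions was not established for any single gene. Of the single genes named above, Etaa1 and Gm12338 passed, with differences of 2.52 ± 0.61 (adjusted p = 0.0478) and 3.05 ± 0.70 (adjusted p = 0.0376). The Etaa1 value includes a signal of only 9.01 on the CD29L CD24H array of tumor 7.

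**Figure D5:**
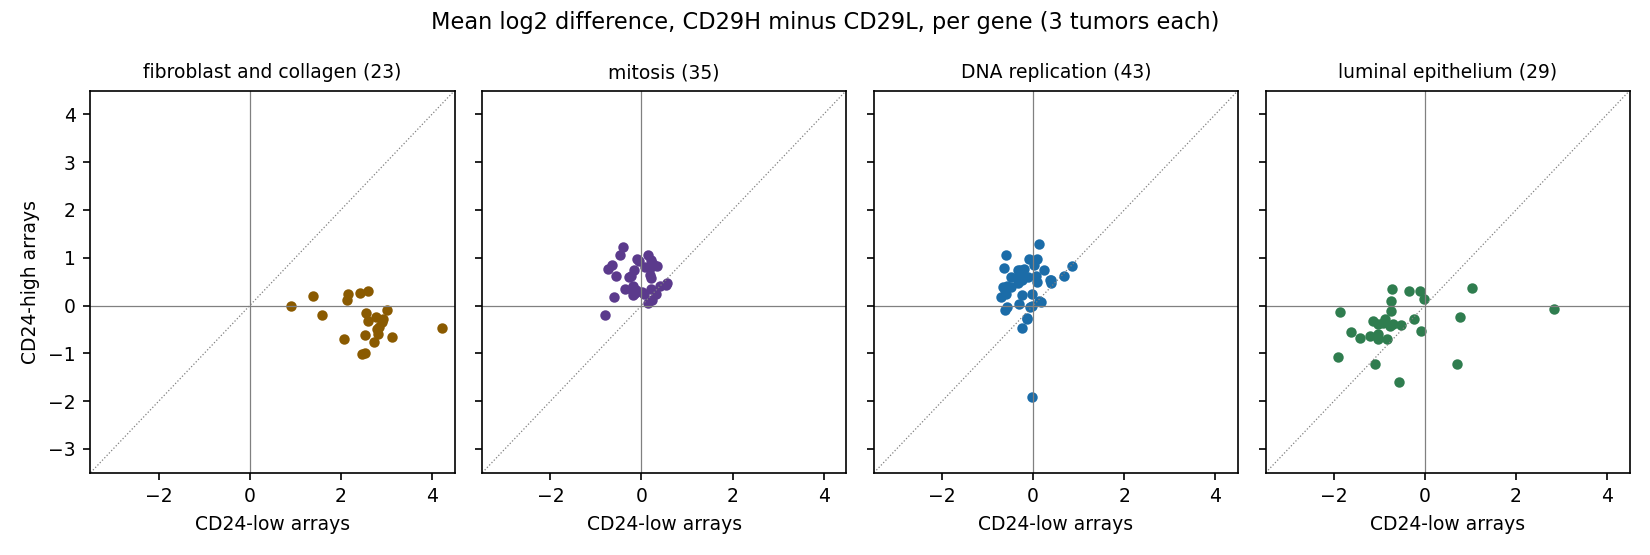
Mean log2 difference between CD29H and CD29L arrays per gene in CD24-low tumor cells (horizontal axis) and CD24-high tumor cells (vertical axis) for 4 lists, with the number of genes tested in brackets and a dotted line of equal values. Fibroblast genes lie far right and near or below 0 on the vertical axis, and mitosis genes lie above 0 around the middle.

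In normal mammary cells the nearest comparison, CD29H CD24P against CD29P CD24H with 2 preparations, separated basal from luminal cells widely. Basal genes had a median of 5.05 and luminal genes of -2.63 there, against 0.00 and -0.38 in the CD24-high tumor cells. The difference between tumor and normal passed for 1128 genes (10.3%), 475 (4.35%) higher and 653 (5.98%) lower. Without the block it passed for 272 genes, and without any 1 of the 4 normal arrays for 420 to 514. It passed for 16 of 20 basal genes in the lower direction and 1 in the higher, and for 16 of 29 luminal genes, all higher. Krt14 had 17951 and 18829 in the normal CD29H CD24P preparations against 236 and 135 in the CD29P CD24H ones, and a tumor-minus-normal difference of -6.73 ± 0.42. Col4a2, a basement membrane collagen, had 15530 and 16366 against 92.7 and 106 in normal cells, and 10807, 5974 and 2250 against 5626, 5890 and 3299 in the tumors. For mitosis the median in normal cells was 0.60, close in size to that in the tumors, and 1 of 35 genes passed the tumor-minus-normal test. Anln was that gene: it was higher in the tumors (1.06) and lower in normal cells (-0.75). Malat1 passed it as well, at -1.66 ± 0.42, but the normal preparations went opposite ways, at 0.56 (11813 against 8005) and -0.77 (12811 against 21849). The gates are named differently in normal and tumor cells, and the normal arrays had lower actin ratios (3.08 to 24.7); the part of either was not tested.

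The 3 tumors shared little of their CD29 differences. Over 10916 genes, which are not independent replicates, the within-tumor differences of tumors 1 and 2 had a Pearson r of 0.09, those of tumors 1 and 7 of 0.28, and those of tumors 2 and 7 of 0.13. In the CD24-low fractions the same values were 0.37, 0.41 and 0.44. The sign agreed in 50.7%, 60.1% and 52.7% of genes for the 3 pairs of tumors in CD24-high cells. In CD24-low cells it agreed in 59.4%, 58.4% and 60.4%, so tumors 1 and 7 agreed no better there. The spread of the differences was 0.58, 0.67 and 0.73 (SD over genes) in tumors 1, 2 and 7.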

How the data were processed

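Expression was measured on one-colour Affymetrix arrays. The values are signal intensities as the authors deposited them in the series' value table, computed with GCOS per the submitters' processing notes, with no version given; per the labels, a reference RNA served for normalization, in a way not given in the sources used here. Each of the 18 arrays had a mean of 500 after leaving out 2% of the probe sets at each end. Of 45101 probe sets, 64 controls were left out, 34945 had 1 gene symbol in the platform annotation, 932 several and 9160 none. For each of 18193 genes the probe set of highest mean over the 12 tumor arrays was kept, and the 40% of genes with the lowest means were left out. The number of arrays limits the precision.

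From the 12 tumor arrays, log2(signal + 32) went into linear models (limma 3.58.1, R 4.3.3) of 4 fractions, tumor as a block, an intensity trend and Benjamini-Hochberg adjustment at 0.05; the tumor-minus-normal test used 17 arrays. The difference between CD24-high and CD24-low comparisons was an interaction term. The tumor number in the titles gave the pairing. Deviations of same-tumor arrays from their fraction's mean correlated at 0.39 to 0.73 (18 pairs), against -0.67 to -0.05 between tumors. Taking out that mean by itself pushes the values between tumors below 0, so this contrast is not a test of the pairing. Groups hold 3 arrays. With tumor as a block, level differences between tumors are taken out. The p-values measure how unevenly the 4 fractions differ from tumor to tumor, CD24-low arrays included, with error partly shared between genes. The code was tested on simulated data; figures used matplotlib 3.10.9.

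Named were the sort markers and integrin alpha genes, every gene past 0.05, the 10 higher and 10 lower genes with the largest smallest-of-3 difference, the 5 lowest p-values of each further test, and defining members and the 2 lowest p-values of each list. The members and the 34 lists were chosen with earlier results of these data known, so lists are described without a test. Alternatives were the offset, scaling, filter, probe set summary, trend, block, 6 arrays only and leaving out arrays; 2 alternatives on the actin ratio and leaving out normal arrays were added after seeing the data.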

Additional observations from a re-analysis of the deposited data

Results flagged for a closer look

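Some genes had a CD29 difference that itself differed between CD24-high and CD24-low tumor cells by the interaction test. The difference between the comparisons was 2.52 for Etaa1 and 3.05 for Gm12338, both higher in the CD24-high one. Etaa1 had only 9.01 on the CD29L CD24H array of tumor 7. The difference was -4.77 for Bicc1, -3.76 for Aebp1, -4.07 for Mrc2, -3.90 for Ptx3 and -3.59 for Gfpt2, where the CD24-low comparison was higher. Adjusted p ran from 0.00216 to 0.0478.

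Others had a CD29 difference that differed between tumor and normal cells. The tumor-minus-normal value was -1.66 for Malat1, 2.004 for Tceanc, -4.42 for Srr, -4.97 for Sema3f, -4.12 for Aif1l and -3.03 for Aar2. For the last 4 genes the normal CD29P CD24H arrays disagreed with each other: Srr had 42.8 in preparation 1 and 1965 in preparation 2, and Aar2 130 and 2030. Those of Malat1 disagreed too, with 8005 in preparation 1 and 21849 in preparation 2. The value was -6.73 for Krt14, -6.79 for Col4a2, -6.07 for Aebp1, -7.11 for Cxcl14, a chemokine, and -6.44 for Vcan, all with normal preparations close to each other.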

How the results depend on the processing

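The count of 1 gene past the threshold in the CD24-high comparison became 0 with quantile normalization, the median shift, no filter, the mean of probe sets, no intensity trend, tumor as a random block or without the 2 arrays of lowest actin ratio, where 883 to 1289 genes had an unadjusted p under 0.05 except for the random block, with 768. It was 2 with each probe set tested by itself and 36 with the 6 arrays alone. Without the tumor block, that is without the pairing, it was 0, with 287 genes at an unadjusted p under 0.05. Leaving out single arrays or tumors gave 0 to 9: 9 without tumor 1, 3 and 2 when the CD29L CD24L array of tumor 2 or of tumor 1 was omitted, and 0 in all other cases. Malat1 kept its direction in all 28 alternatives, between -1.41 and -1.94, and passed in 8. The Itgb1 difference ranged from -1.17 to 0.046 (its value with the CD29H CD24H array of tumor 2 omitted) over the leave-outs and was 0.20 without the 2 arrays of lowest actin ratio. That of Cd24a ranged from -0.47 to 0.058, above 0 when tumor 2's CD29L CD24H array was omitted.

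The 211 genes whose CD29 difference differed between CD24-high and CD24-low cells became 87 with an offset of 1, 104 with no filter, 137 with 60% of genes left out, 131 with the actin ratio as a covariate and 0 without the tumor block (646 at an unadjusted p under 0.05). Leave-outs gave 0 to 249: 0 without tumor 2 (923 at an unadjusted p under 0.05), 31, 34, 83 and 65 when tumor 2 lost its CD29H CD24H, CD29L CD24H, CD29H CD24L or CD29L CD24L array, 117 and 99 when tumor 1 lost its CD29L CD24H or CD29H CD24L array, and 63 when tumor 7 lost its CD29H CD24H array. The 1128 genes of the tumor-minus-normal test became 272 without the block. Leave-outs gave 420 to 1258, with 420 and 508 without the normal CD29H CD24P array of preparation 1 or 2, and 424 and 514 without the CD29P CD24H array of preparation 1 or 2. The causes were not tested. With 3 tumors and 6 residual degrees of freedom, a difference below the threshold is not shown to be absent, and signals below the filter level, such as those of Krt19 in tumors 1 and 2, give only imprecise differences.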

Other observations

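Several further gene groups have not been described above. Of 28 interferon response genes, 23 were tested and 18 were lower in CD29H CD24H cells, with a median of -0.23. It rested on tumors 2 and 7 (medians of 0.05, -0.64 and -0.27 in tumors 1, 2 and 7) and was -0.08 without tumor 2 or with the median shift, and -0.034 without the 2 arrays of lowest actin ratio. Irf7, a transcription factor of this response, had 268, 18.4 and 266 on the CD29H arrays of tumors 1, 2 and 7 against 426, 310 and 1185, a difference of -1.80 ± 0.48 (limma, adjusted p = 0.476). Mx1, an antiviral GTPase, had 109, 48.7 and 190 against 224, 126 and 410. Of 27 Wnt pathway genes tested 14 were higher, with a median of 0.03; Wnt7b, a ligand, had 373, 107 and 579 against 1050, 335 and 1490, lower by nearly the same amount in each tumor (-1.42, -1.40 and -1.32). Of 13 Notch pathway genes 8 were lower (median -0.30; -0.16 with the median shift, and 0.03 with no filter). The receptor Notch3 had 1048, 1373 and 316 against 2667, 1974 and 564, whereas the ligand Dll1 had 1925, 2405 and 479 against 868, 1222 and 458. Of 17 p53 target genes tested 10 were lower, with a median of -0.23 that was -0.03 without tumor 1 and -0.08 with the median shift; Cdkn1a, the cyclin kinase inhibitor, was at -0.25 ± 0.31 and Mdm2, the ubiquitin ligase of p53, at -0.72 ± 0.40.

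Of 17 polycomb and chromatin genes 12 were higher, with a median of 0.20, or 0.12 without tumor 1, and none lower in all 3 tumors. Ezh2, the methyltransferase of the polycomb repressive complex, had 2087, 3839 and 11343 against 2002, 1850 and 5741. Of 21 hypoxia and glycolysis genes 15 were lower (median -0.20), but the median was -0.05 with the median shift and -0.010 without tumor 7. Medians were within 0.15 of 0 for 23 respiratory chain genes (0.01), 17 ribosomal protein genes (-0.07, and 0.07 with the median shift), 23 splicing genes (0.13), 16 stem and progenitor surface genes (0.04) and 15 lipid and liver metabolism genes (0.09). Among the surface genes, Prom1, which encodes CD133, had 7614, 16425 and 14069 against 6627, 14577 and 9633, and Cd44 changed direction between tumors. In the remaining stromal lists, 7 of 11 endothelial genes (median -0.18), 6 of 7 pericyte genes (-0.26) and 6 of 9 T and NK cell genes (-0.27) were lower, with Pecam1, Tek and Cd3e below the filter. These medians also turned on single tumors: without tumor 2 they were 0.0011 for endothelium and 0.14 for pericytes, and those of T and NK cells by tumor were -0.05, -0.84 and 0.22. The adipocyte list had 2 genes tested, 1 higher and 1 lower, and all 5 erythroid genes on the array were below the filter.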
